A study of Mus musculus with 4 samples.

Results

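Cytosolic ribosomal protein genes encode the protein subunits of the ribosome that translates nuclear-encoded mRNA, and they are described here in brain and spine of mouse embryos with and without neural tube defects (NTD). Members were the protein-coding genes of the FPKM table whose symbol is that of a ribosomal protein (Rpl or Rps with a number, or Rplp0, Rplp1, Rplp2 or Rpsa, without the Rps6k kinases) and whose mean over the libraries was at least 1 FPKM (reads scaled to the length of the gene model and the library total). This gave 79 genes of the 28765 in the table, 32 of the small and 47 of the large subunit. Of 82 protein-coding genes with such a name, the level left out Rpl24, at 0.29 FPKM in NTD brain and 0.46 FPKM in control brain and at 0.99 FPKM in NTD spine and 0.60 FPKM in control spine, as well as Rpl3l and Rpl10l, each at or near 0. The lowest members inside the limit were Rps10, with a mean of 6.55 FPKM, and Rpl21, with a mean of 7.62 FPKM.

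RNA-seq was done on CD-1 embryos at embryonic day 9.5, in 4 groups of 1 library each: NTD brain, control brain, NTD spine and control spine. NTD were induced with methotrexate, a folate antagonist, given to pregnant mice at 1.5 mg/kg on day 7.5. The labels describe long feeding on a diet low in folate, with the same text for every sample, and do not say what control mothers received. They also do not say whether a library holds tissue of 1 embryo or of several, and treatment and day of handling cannot be told apart. With 1 library per group no difference has a replicate check, and no p-value is given.

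The reads behind the FPKM values were recovered from their whole-number steps, and the library totals lay between 16272101 and 16911677 reads. Intervals are exact 95% intervals of a ratio of reads per library total and cover counting error only. The labelled tissues were checked with markers. All 8 forebrain and midbrain genes were above 0 in every library and summed to 79.0 FPKM in NTD brain and 86.3 FPKM in control brain, against 6.61 FPKM in NTD spine and 13.4 FPKM in control spine. The 8 trunk Hox genes summed to 161 FPKM in NTD spine and 154 FPKM in control spine, and to 11.0 FPKM in NTD brain, where all 8 were above 0, against 0.203 FPKM in control brain, where Hoxb7, Hoxb8 and Hoxa7 were at 0. Markers of other cell types also differed: the 8 erythroid genes summed to 4820 FPKM in NTD brain against 4482 in control brain and to 3646 in NTD spine against 6987 in control spine, and the 8 heart genes to 197 FPKM in NTD brain against 47.2 in control brain and to 467 in NTD spine against 695 in control spine. The erythroid genes were mixed in brain, with 5 higher and 3 lower in NTD brain, and all 8 were lower in NTD spine. The 8 early neuron genes summed to 96.1 FPKM in NTD brain against 149 in control brain and to 45.5 in NTD spine against 85.5 in control spine. Of these, Isl1 went the other way in spine, at 8.40 FPKM in NTD spine against 7.78 FPKM in control spine. The 6 endoderm and yolk sac genes summed to 2.84 FPKM in NTD brain against 2.92 in control brain and to 47.2 in NTD spine against 148 in control spine. Apoa1 and Apoa2 were at 0 in NTD brain and Afp, Apoa2, Ttr and the heart gene Nppa in control brain. The part of these cells in the differences described here was not tested. In tissue of mixed cells, fewer cells of a type and less RNA per cell cannot be told apart.

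A ribosome holds its proteins in fixed numbers, so the genes that encode them are transcribed at high levels and largely in step, and their mRNAs share a pyrimidine-rich 5′ end through which the mTOR pathway controls their translation. Proteins made in excess are degraded, and free Rpl5 and Rpl11, bound to 5S rRNA, inhibit Mdm2 and so raise p53. Reduced dosage of several of these proteins causes Diamond-Blackfan anaemia in humans and skeletal or pigment defects in mice. The genes have also given rise to many processed pseudogenes, intronless copies of the spliced mRNA, which a short read may match as well as the gene itself.

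The members were compared with their copies because a short read can match both. Taking every 75-base window of each member's main mRNA, 33 of 79 members had fewer than 50% of their windows unique among annotated transcripts and 12 had at least 90%. A copy was a pseudogene, or a gene outside the members with a provisional or a ribosomal protein name, holding at least 10% of those windows. Some copies, such as Rps27rt for Rps27, are annotated as coding for protein. At least 1 copy was found for 64 members and none for 15. There were 317 such copies, of which 283 were in the table. The stretches below, each 90 bases from the coding sequence of a member and the matching bases of the copy with the most reads, are shown because members and copies diverged in these libraries. Capitals mark the base at which the copy differs from the mRNA. The pairs are Rpsa (chr9:120127689-120132369, plus strand) and Rpsa-ps10 (chr3:150072658-150073542, minus strand), Rps2 (chr17:24718116-24721929, plus strand) and Rps2-ps13 (chrX:52898588-52899469, plus strand), Rpl26 (chr11:68901583-68906989, plus strand) and Gm15772 (chr5:3236431-3236868, plus strand), and Rpl35a (chr16:33056453-33060189, plus strand) and Gm10243 (chr6:48523518-48523850, plus strand), all on GRCm38.
Rpsa: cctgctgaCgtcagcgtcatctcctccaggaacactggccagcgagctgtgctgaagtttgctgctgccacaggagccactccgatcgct
Rpsa-ps10: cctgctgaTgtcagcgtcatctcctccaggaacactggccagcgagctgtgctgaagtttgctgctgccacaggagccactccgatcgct
Rps2: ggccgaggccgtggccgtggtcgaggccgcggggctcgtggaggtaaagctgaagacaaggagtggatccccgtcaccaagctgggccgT
Rps2-ps13: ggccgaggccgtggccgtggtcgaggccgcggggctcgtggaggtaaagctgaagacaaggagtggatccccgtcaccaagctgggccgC
Rpl26: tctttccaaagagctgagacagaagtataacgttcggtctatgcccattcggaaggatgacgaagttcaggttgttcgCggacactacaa
Gm15772: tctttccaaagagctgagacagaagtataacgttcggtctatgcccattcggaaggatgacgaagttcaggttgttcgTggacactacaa
Rpl35a: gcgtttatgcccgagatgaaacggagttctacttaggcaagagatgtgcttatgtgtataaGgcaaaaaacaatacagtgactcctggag
Gm10243: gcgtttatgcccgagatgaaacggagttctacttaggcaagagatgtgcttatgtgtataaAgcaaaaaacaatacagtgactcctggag

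Each pair differs at 1 of 90 bases, and in each member the stretch crosses an exon junction, after base 42 in Rpsa, 63 in Rps2, and 70 in both Rpl26 and Rpl35a. The read length, the counting program and its handling of reads with several matches are not given in the labels or the table.

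The members were among the most abundant transcripts. They took 5.29% of gene reads in NTD brain (95% Wilson interval 5.28 to 5.30) against 4.92% in control brain (4.91 to 4.93), and 4.69% in NTD spine (4.68 to 4.70) against 4.98% in control spine (4.97 to 4.99). NTD brain had the highest share and NTD spine the lowest, with the control tissues between them. With the reads of copies added, the shares were 6.37% in NTD brain, 6.04% in control brain, 5.67% in NTD spine and 6.07% in control spine, with NTD brain highest and NTD spine lowest as before. As a share of the FPKM sum, members with their copies held 14.1% in NTD brain, 14.2% in control brain, 13.6% in NTD spine and 14.3% in control spine, so on that scale NTD spine was again the lowest but NTD brain was not the highest. Small subunit genes held 2.15% of gene reads in NTD brain against 1.97% in control brain, and large subunit genes 3.14% in NTD brain against 2.95% in control brain. In spine, small subunit genes held 1.91% in NTD spine against 2.03% in control spine, and large subunit genes 2.78% in NTD spine against 2.94% in control spine.

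Levels differed widely between members, from 6.52 FPKM for Rps10 to 1755 FPKM for Rplp1 in control brain, with a median of 250 FPKM. FPKM here divides by the length of all exons of a gene model, which was over 2 times the length of the main mRNA in 47 members. Per kilobase of main mRNA, with the same scaling to the library total, the level averaged 2498 for Rpl41, the smallest of the ribosomal proteins, 1866 for Rplp0 and 1774 for Rplp1, both of the acidic stalk that binds elongation factors, and 1746 for Rps15, a protein of the small subunit head. The lowest on this scale were Rps10 at 17.1, Rpl29 at 28.5, Rpl21 at 28.8, Rpl13a at 30.4 and Rpl22l1 at 45.1, and the median member in control brain stood at 615. Most reads of several low members were on copies. Rps10 had 246 reads in NTD brain, 255 in control brain, 221 in NTD spine and 280 in control spine, while its copies had 5141 in NTD brain, 5202 in control brain, 4582 in NTD spine and 4786 in control spine. Rpl21 had between 383 and 472 reads in a library and its copies between 4604 and 4873. Rps10 binds at the head of the small subunit, and Rpl21 belongs to the large one. Copies held more than 50% of the summed reads of 10 members in NTD brain, 11 in control brain, and 12 in each of NTD spine and control spine.

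**Figure D1:**
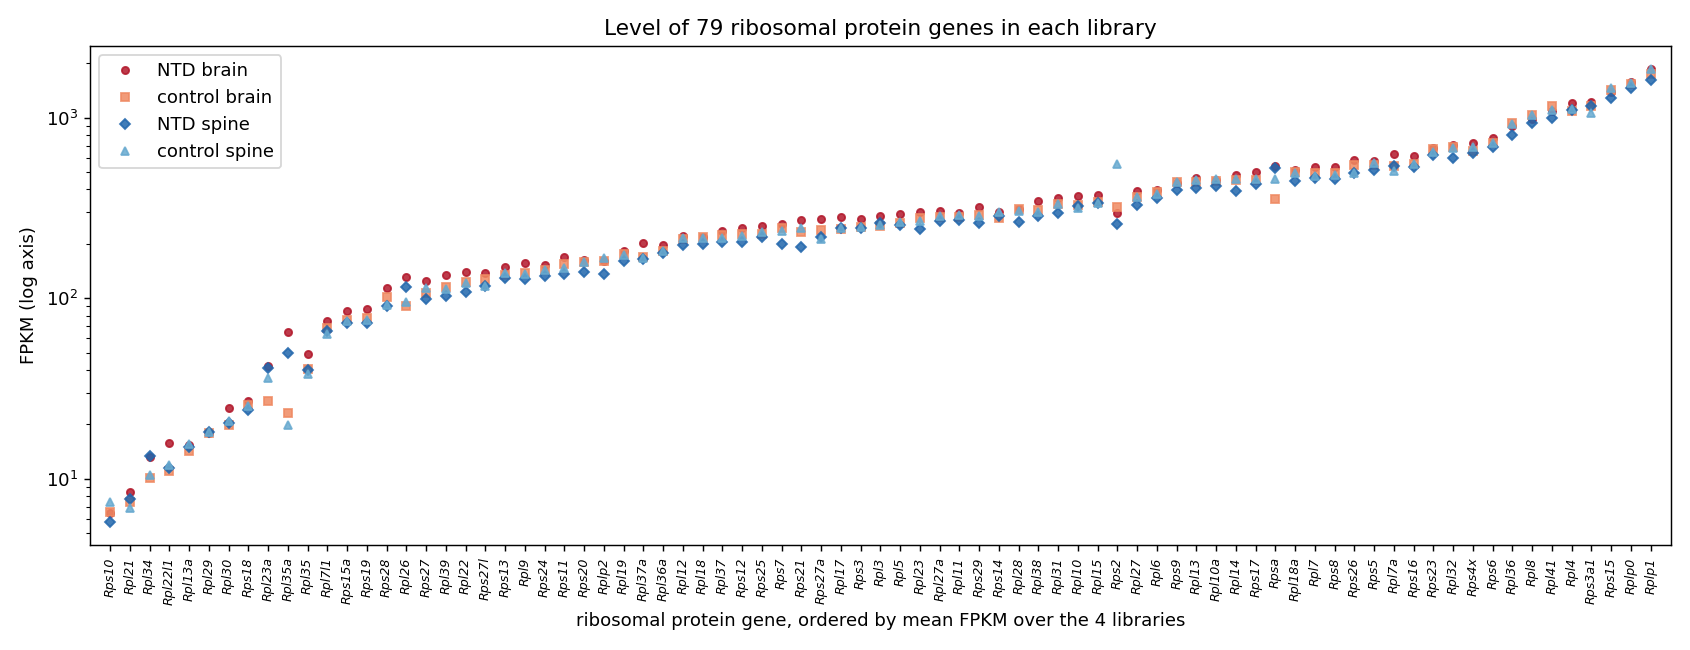
FPKM (log axis) of each of the 79 ribosomal protein genes in NTD brain (circles), control brain (squares), NTD spine (diamonds) and control spine (triangles), ordered by mean FPKM. The 4 points of most genes lie close together from Rps10, at a mean of 6.55 FPKM, to Rplp1, and stand apart for Rpl35a, Rps2, Rpsa and Rpl23a.

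In brain, most ribosomal protein genes were slightly higher in the NTD library. The median log2 ratio of (FPKM + 1) in NTD brain over control brain was 0.12 over the 79 members and -0.03 over all 12940 genes compared. It was higher in NTD brain for 71 members and lower for 8, where 43.6% of all genes compared were higher and 56.4% lower. Among 2521 other genes that code for protein and average 20 FPKM or more the median was 0.001, and 50.1% were higher. With libraries rescaled to an equal FPKM sum the split was 63 higher and 16 lower, where 36.1% of all genes were higher and 63.8% lower. The counting interval of the fold lay above 1 for 59 members and below 1 for 5. Such intervals were computed for members only, so this count has no share over all genes beside it. The interval of a gene with many reads leaves out 1 even at a small ratio. Differences were small: 6 members were at least 25% higher, against 5.06% of all genes and 2.06% of the other genes of at least 20 FPKM. At least 20% lower were 0 members, the same ratio turned round, against 9.34% and 3.01%. At 2-fold, 1 member was higher, against 0.804% of all genes, and 0 were lower, against 0.781%.

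In spine the direction was mostly the opposite. The median log2 ratio in NTD spine over control spine was -0.08 over the members and -0.04 over all genes. It was lower in NTD spine for 63 members and higher for 16, where 58% of all genes were lower and 41.9% higher. Among the other genes of at least 20 FPKM the median was -0.01 and 53.2% were lower. The split moved with scaling, as that of all genes did: with an equal FPKM sum 31 members were higher and 48 lower, where 51.7% of all genes were higher and 48.3% lower. The median of the members minus that of all genes was -0.05 as deposited and -0.04 with an equal sum. After adjustment for GC content and length 39 were higher and 40 lower, with a median of -0.006. At least 25% higher in NTD spine was 1 member, against 4.22% of all genes and 2.14% of the other genes of at least 20 FPKM, and 2 were at least 20% lower, against 11.1% and 4.6%. At 2-fold, 1 was higher, against 0.649%, and 1 lower, against 0.68%.

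Of the 79 members, 55 were higher in NTD brain and lower in NTD spine, a pattern held by 16.8% of all genes compared and by 14.6% of the other genes of at least 20 FPKM. Both ratios were above 0 in 16 members (26.7% of all genes) and below 0 in 8 (41.1%), and no member was lower in NTD brain and higher in NTD spine (15.2% of all genes). The intervals of 33 members lay above 1 in brain and below 1 in spine, and of 0 members the other way round. The share of all genes with such intervals was not computed. The brain and spine comparisons share no library. Only Rpl35a was at least 25% higher in both tissues, a pattern of 1.51% of all genes, and 0 members were at least 20% lower in both, against 4.05%.

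**Figure D2:**
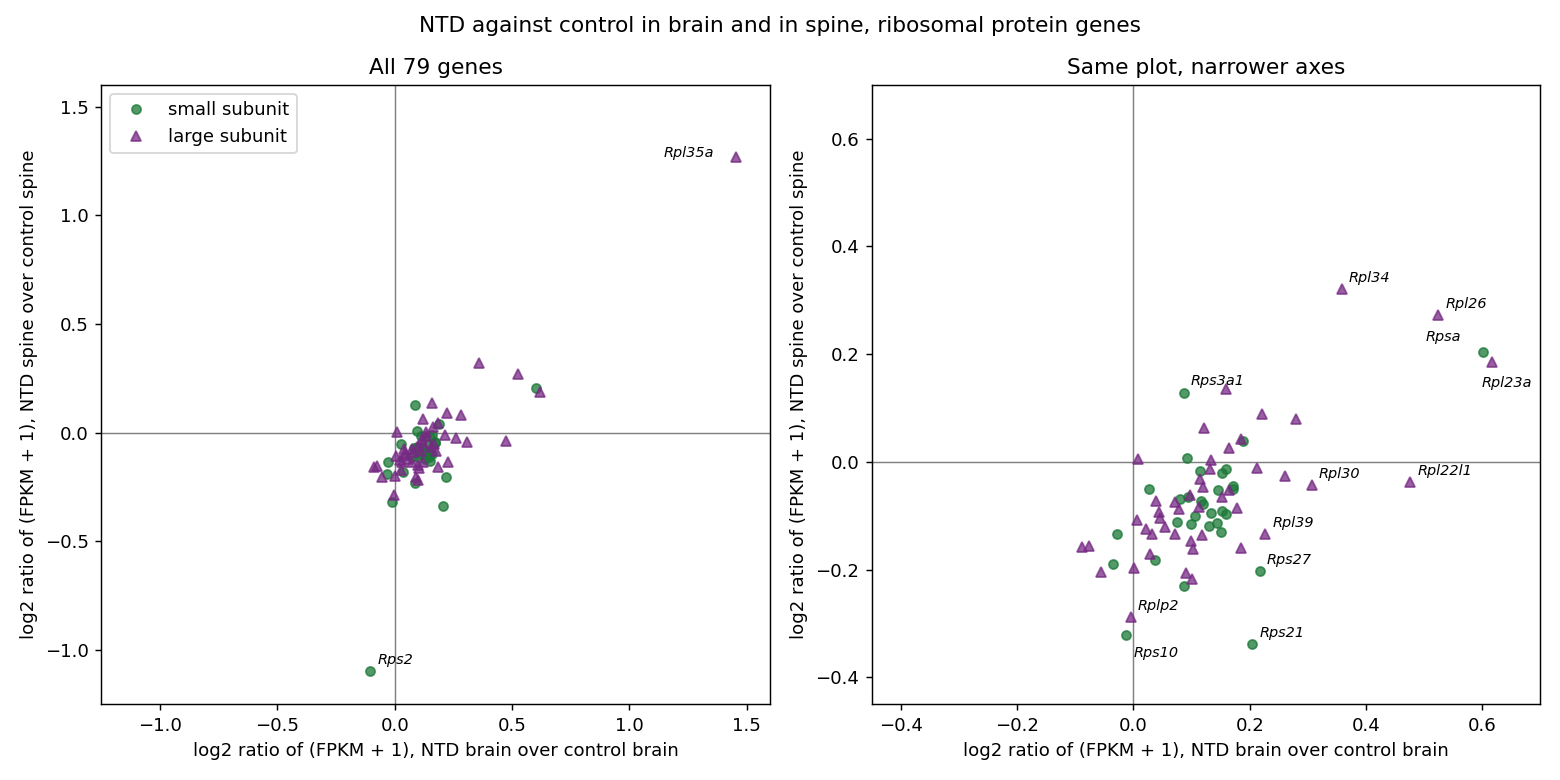
Log2 ratio of (FPKM + 1) in NTD brain over control brain (horizontal) and in NTD spine over control spine (vertical) for the 79 genes, with circles for the small and triangles for the large subunit and narrower axes on the right. Most points lie in the lower right part, which holds 55 genes, though after GC content and length adjustment 39 are higher and 40 lower in NTD spine. Rpl35a lies at 1.45 and 1.27 and Rps2 at -0.11 and -1.10.

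The 15 members without copies leaned the same ways. Between 76.9% and 100% of their windows were unique, so some of their reads can still match elsewhere. Over these genes the median log2 ratio was 0.11 in NTD brain over control brain, with 13 higher and 2 lower, where 43.6% of all genes were higher and 56.4% lower. It was -0.11 in NTD spine over control spine, with 1 higher and 14 lower, where 41.9% of all genes were higher and 58% lower. These values are given without adjustment for GC content and length. Rps21, a small protein of the small subunit body, was at 269 FPKM in NTD brain against 234 FPKM in control brain and at 193 FPKM in NTD spine against 244 FPKM in control spine. It was thus highest in NTD brain and lowest in NTD spine, 1.15-fold higher in NTD brain (interval 1.10 to 1.21) and 1.27-fold lower in NTD spine (1.20 to 1.33). Rpl39, an X-linked gene for a protein of the peptide exit tunnel, was at 134 FPKM in NTD brain against 115 in control brain and at 103 FPKM in NTD spine against 113 in control spine. Rpl22, which encodes an RNA-binding protein of the large subunit, was at 140 FPKM in NTD brain against 123 in control brain and at 108 FPKM in NTD spine against 121 in control spine. In all 3 genes the NTD brain value was the highest and the NTD spine value the lowest of the libraries. Rpl4, a long protein that lines the exit tunnel, stood at 1199 FPKM in NTD brain against 1094 in control brain, and at 1100.9 FPKM in NTD spine against 1112 in control spine, so that NTD brain was above the other 3 libraries.

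After Rpl35a, the 3 members farthest above control brain in NTD brain, Rpl23a, Rpsa and Rpl26, had abundant copies. Rpsa, which encodes the laminin receptor protein of the small subunit, had 28258 reads in NTD brain against 19098 in control brain, and 27792 in NTD spine against 23627 in control spine, a log2 ratio of 0.60 in brain and 0.20 in spine. Its copy Rpsa-ps10, shown above, had 7348 reads in NTD brain against 15761 in control brain, and 4849 in NTD spine against 11626 in control spine, so that gene and copy ran in opposite directions. Summed over Rpsa and its 4 copies there were 37379 reads in NTD brain against 37311 in control brain, and 34128 in NTD spine against 37346 in control spine. Per library total the sum was 1.03-fold that of control brain in NTD brain (interval 1.01 to 1.04) and 0.896-fold that of control spine in NTD spine (0.882 to 0.909). The log2 ratio of the sums was 0.04 in brain and -0.16 in spine, so the direction in spine turned when copies were added.

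Rps2, a protein at the mRNA entry of the small subunit, was the member farthest below its control in spine. It had 8902 reads in NTD brain against 9838 in control brain, and 7829 in NTD spine against 16451 in control spine, where control spine stood above the other 3 libraries. It was 2.14-fold lower in NTD spine (interval 2.09 to 2.20). Its copy Rps2-ps13 on the X chromosome had 26997 reads in NTD brain against 26880 in control brain, and 24756 in NTD spine against 18218 in control spine, lowest where Rps2 was highest. The sums over Rps2 and its 24 copies were 37231 reads in NTD brain against 39684 in control brain, and 35133 in NTD spine against 39349 in control spine. On these sums the log2 ratio was -0.05 in brain and -0.19 in spine, where the gene alone gave -0.11 and -1.10. Copies held 77.7% of the summed reads in NTD spine and 58.2% in control spine.

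Rpl23a and Rpl26, neighbours at the rim of the exit tunnel, had log2 ratios of 0.62 and 0.52 in NTD brain over control brain. Rpl23a had 584 reads in NTD brain against 386 in control brain, and 579 in NTD spine against 497 in control spine. Its 6 copies had 4046 reads in NTD brain against 4224 in control brain, and 3946 in NTD spine against 3988 in control spine. Rpl26 had 3118 reads in NTD brain against 2218 in control brain, and 2754 in NTD spine against 2231 in control spine, while Gm15772, the intronless copy shown above, had 8067 reads in NTD brain against 8727 in control brain, and 7630 in NTD spine against 8339 in control spine. With copies added the log2 ratio in brain was 0.04 for Rpl23a and 0.07 for Rpl26, and in spine -0.02 and -0.06. Rpl34, a large subunit protein, had 574 reads in NTD brain against 450 in control brain, and 583 in NTD spine against 449 in control spine, and its 3 copies had 5386 reads in NTD brain against 5237 in control brain, and 4615 in NTD spine against 5157 in control spine. Its log2 ratios of 0.36 in brain and 0.32 in spine were 0.11 and -0.14 on the sums. In control brain, copies held 91.6% of the summed reads of Rpl23a, 79.9% of those of Rpl26 and 92.1% of those of Rpl34. These sums thus follow mostly the copies, and a difference of the gene alone moves them little. A sum near level does not by itself show that the copies offset the gene.

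Rpl35a stayed apart. This gene of the large subunit, mutated in some patients with Diamond-Blackfan anaemia, was at 64.7 FPKM in NTD brain against 23.0 FPKM in control brain, and at 49.5 FPKM in NTD spine against 19.9 FPKM in control spine. Its 10 copies together had 574 reads in NTD brain against 776 in control brain, and 529 in NTD spine against 805 in control spine. The gene itself had 3757 reads in NTD brain against 1370 in control brain, and 2896 in NTD spine against 1144 in control spine, so the copies had fewer reads than the gene in every library. The sums were 2.07-fold higher in NTD brain (interval 1.97 to 2.18) and 1.72-fold higher in NTD spine (1.63 to 1.82), and the 2 NTD libraries were above the 2 controls. The union of Rpl35a exons spans 3526 bases and the main mRNA 491, and the deposited values do not say which exons the reads lie on.

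Rpl22l1, a paralog of Rpl22 that can take its place in the ribosome, was at 15.7 FPKM in NTD brain against 11.0 FPKM in control brain, and at 11.5 FPKM in NTD spine against 11.9 FPKM in control spine. It was high in NTD brain alone, 1.43-fold above control brain (interval 1.246 to 1.63), and its single copy had only between 49 and 66 reads, so that the sum was still 1.34-fold higher (1.18 to 1.52). Rpl30, which binds its own transcript in yeast, was the reverse case. It had 1225 reads in NTD brain against 1007 in control brain, and 1021 in NTD spine against 1032 in control spine, but its copy Gm12191 had 650 in NTD brain against 1517 in control brain, and 1103 in NTD spine against 1044 in control spine. The log2 ratio in brain was 0.31 for Rpl30 alone and -0.39 for the sum over its 7 copies and the gene.

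**Figure D3:**
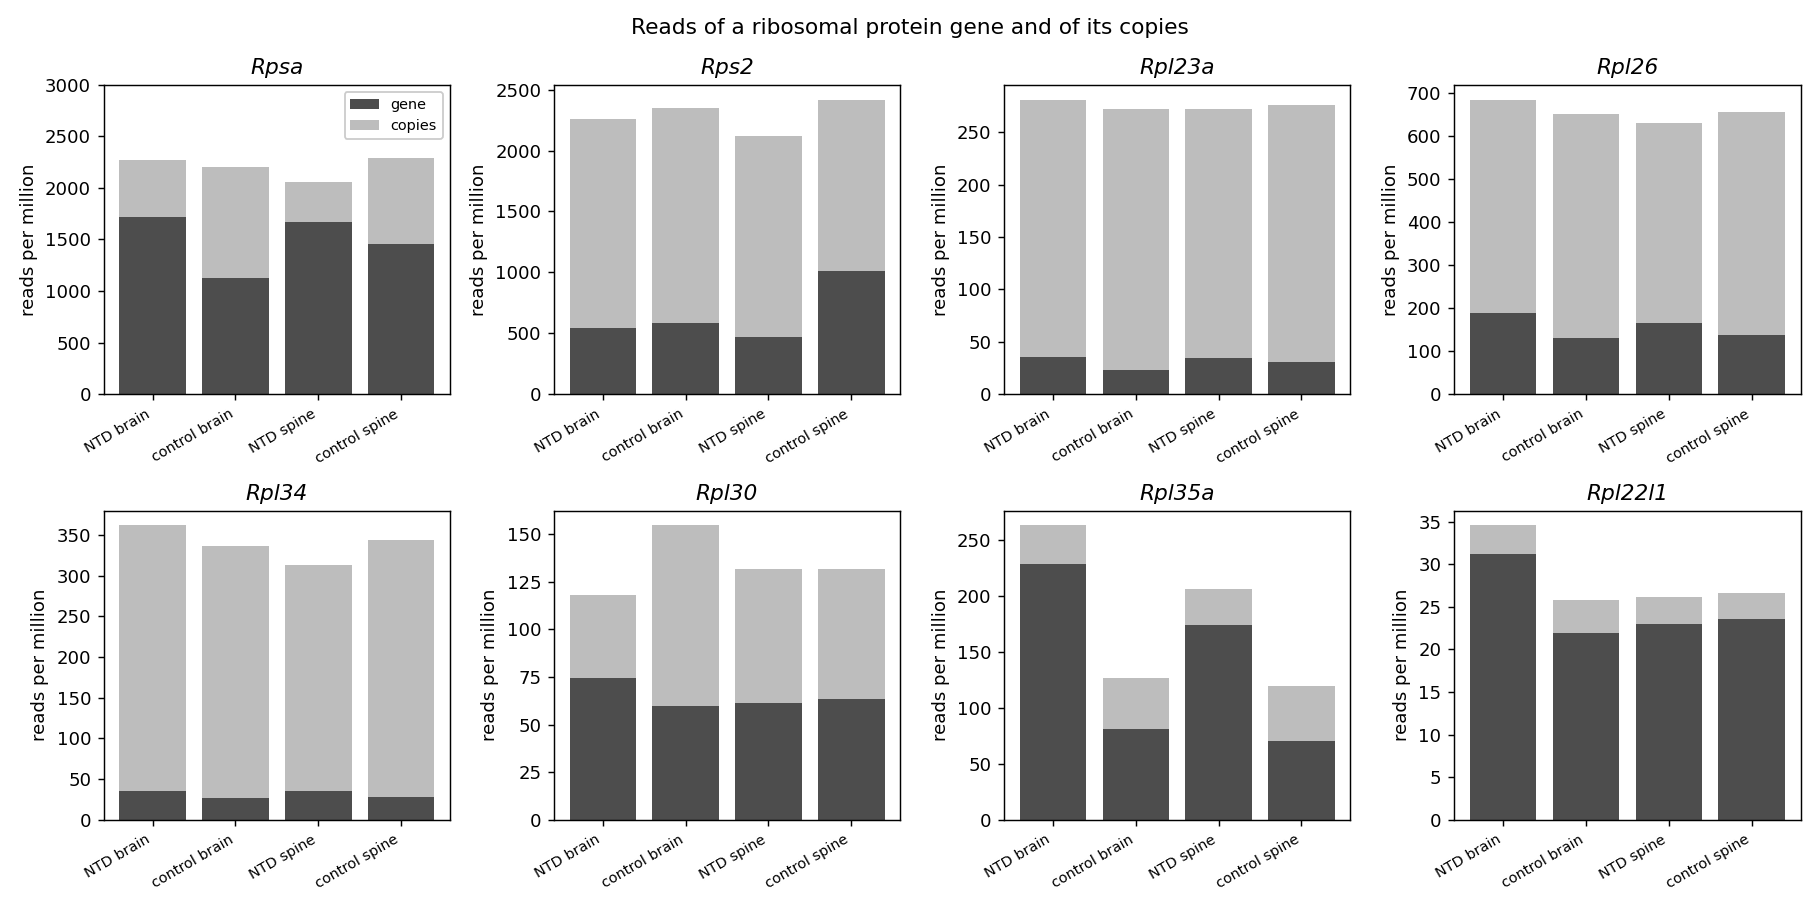
Reads, scaled to the library total, of 8 ribosomal protein genes (dark) with those of their copies stacked on top (light), in the order NTD brain, control brain, NTD spine and control spine. Between NTD and control, the stacks of Rpsa, Rps2, Rpl23a and Rpl26 differ less than the dark parts, though those of Rpsa and Rps2 are lower in NTD spine than in control spine. The stack of Rpl35a is higher in both NTD libraries and that of Rpl30 lower in NTD brain than in control brain.

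Adding copies to all members narrowed their spread. The SD over the 79 log2 ratios was 0.14 with copies and 0.20 without in NTD brain over control brain, 0.13 and 0.22 in NTD spine over control spine, and 0.06 and 0.13 in control brain over control spine. From the first to the third quartile the range was 0.094 with copies and 0.105 without in NTD brain over control brain. It was 0.094 and 0.116 in NTD spine over control spine, and 0.067 and 0.072 in control brain over control spine. The medians stayed near their values, at 0.10 in brain, with 67 higher and 12 lower, and at -0.10 in spine, with 8 higher and 71 lower. On the sums, Rpl35a and Rpl22l1 were at least 25% higher in NTD brain and Rpl30 at least 20% lower, while in NTD spine Rpl35a passed the higher limit and Rps21 the lower. Whether the split of reads between genes and copies came from the embryos or from alignment and counting was not tested.

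**Figure D4:**
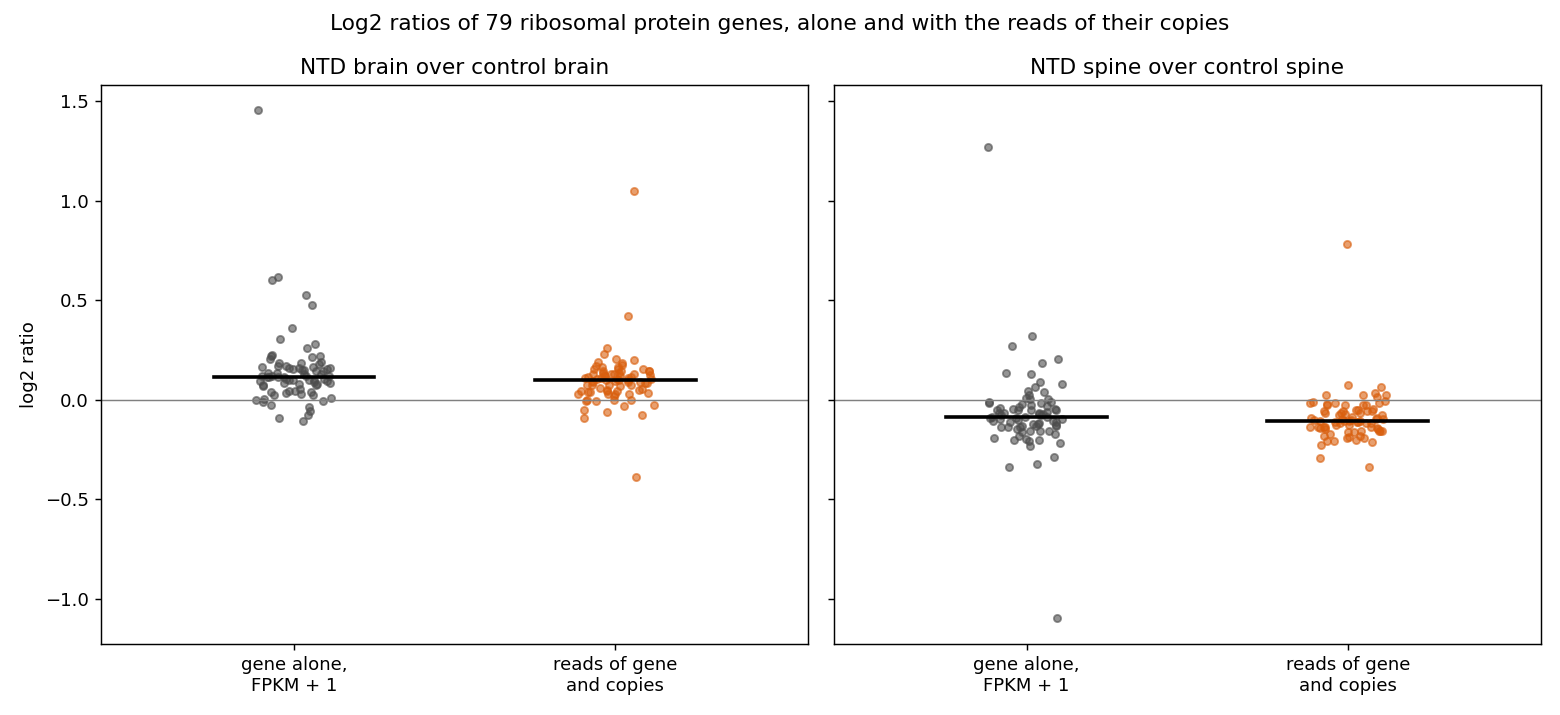
Log2 ratios of the 79 ribosomal protein genes in NTD brain over control brain (left panel) and NTD spine over control spine (right panel), for the gene alone (grey, FPKM + 1) and for reads summed with copies (orange), with black lines at the medians. The medians are 0.12 and 0.10 in brain and -0.08 and -0.10 in spine, though the spine median is -0.006 after GC content and length adjustment, and only Rpl35a stays above 0.5 with copies.

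By role, the stalk genes lay below the members as a whole. Rplp0, Rplp1 and Rplp2 had a median of 0.04 in brain and -0.21 in spine, against 0.12 and -0.08 over all members. Rplp1 was at 1868 FPKM in NTD brain against 1755 FPKM in control brain, and at 1613 FPKM in NTD spine against 1861 FPKM in control spine, and Rplp2 was at 161 FPKM in both brain libraries and at 137 FPKM in NTD spine against 167 FPKM in control spine. Both were lowest in NTD spine. Rpl5 was at 291 FPKM in NTD brain against 259 FPKM in control brain, and at 253 FPKM in NTD spine against 263 FPKM in control spine. Rpl11, its partner in the particle that binds Mdm2, was at 298 FPKM in NTD brain against 282 FPKM in control brain, and at 270 FPKM in NTD spine against 287 FPKM in control spine; in spine the directions of Rpl5 and Rpl11 turned under 1 scaling or adjustment each. Of 21 members whose human counterparts are mutated in Diamond-Blackfan anaemia, 19 were higher in NTD brain and 16 lower in NTD spine, with medians of 0.13 and -0.09, close to those of all members. The 4 members known from mouse mutants with skeletal, pigment or developmental defects, Rpl38, Rps7, Rps19 and Rps20, were all higher in NTD brain, with log2 ratios between 0.04 for Rps20 and 0.17 for Rps19, and lower in NTD spine, between -0.23 for Rps7 and -0.05 for Rps19, except that Rps20 in brain and Rps19 in spine turned with an equal FPKM sum and Rps20 in brain and Rpl38 in spine after adjustment for GC content and length. Rps27a, made as a fusion with ubiquitin, had log2 ratios of 0.19 in brain and 0.04 in spine. The minor paralogs Rps27l, a p53 target, and Rpl7l1 had ratios of 0.11 and 0.12 in brain and -0.02 and 0.06 in spine.

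The 8 members lower in both NTD libraries were Rps2, Rps10, Rps9, Rps15, Rpl8, Rpl36, Rpl41 and Rplp2, though the brain ratios of Rplp2, Rps10 and Rps9, all within counting error, turned with scaling by the median of ratios. Rpl41 was at 1093 FPKM in NTD brain against 1163 FPKM in control brain, and at 992 FPKM in NTD spine against 1106 FPKM in control spine. Rpl8, a protein near the peptidyl transferase centre that has no copies here, was at 979 FPKM in NTD brain against 1032 FPKM in control brain, and at 929 FPKM in NTD spine against 1035 FPKM in control spine. After adjustment for GC content and length, Rpl8, Rpl36 and Rps15 lay above 0 in both tissues and Rpl41 above 0 in spine, and Rplp2 and Rps10 above 0 in brain. Across the 79 members the Spearman correlation of the log2 ratio with GC content was -0.36 in brain and -0.32 in spine, and that with mean FPKM was -0.43 in brain and -0.26 in spine, values over genes that share libraries.

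Between the control tissues the members hardly differed. The median log2 ratio in control brain over control spine was 0.006, with 43 higher and 36 lower (51.4% and 48.6% of all genes), and it turned to -0.01 with an equal FPKM sum, where 32 were higher and 47 lower. All genes moved with them, to 47.6% higher and 52.3% lower, and the median of the members minus that of all genes was 0.0002 as deposited and -0.001 with an equal sum. In control brain 0 members were at least 25% higher, against 7.53% of all genes and 2.18% of the other genes of at least 20 FPKM, and 3 were at least 20% lower, against 10.6% and 3.69%: Rps2, Rpl23a and Rpsa, with log2 ratios of -0.80, -0.41 and -0.36. With copies added these were -0.04, -0.02 and -0.06. No member reached 2-fold, against 0.981% of all genes higher and 2.38% lower. Between the NTD tissues, 77 members were higher in NTD brain than in NTD spine and 2 lower, where 51.2% of all genes were higher and 48.7% lower, with a median of 0.20. At least 25% higher were 8 members, against 8.5% of all genes and 2.7% of the other genes of at least 20 FPKM. At least 20% lower were 0, against 10.4% and 4.24%, and 0 reached 2-fold, against 1.02% higher and 2.13% lower. The 8 were led by Rps21 at 0.48, Rpl22l1 at 0.41 and Rpl39 at 0.39. The 2 lower ones, Rpl29 at -0.02 and Rpl34 at -0.01, lay within counting error and stood at 0.15 and 0.21 with copies added. These comparisons share libraries with those of NTD against control.

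Genes that build and use ribosomes were set beside the members. Of all genes compared, 43.6% were higher in NTD brain and 41.9% in NTD spine, and 5.06% and 4.22% were at least 25% higher. Of 50 ribosome biogenesis genes, which process rRNA and assemble subunits in the nucleolus, 41 were higher in NTD brain and 42 higher in NTD spine, with medians of 0.18 and 0.13 and 5 at least 25% higher in each. Npm1, a nucleolar chaperone, had the highest ratio of the list in brain, 0.47, with 0.30 in spine, and Tsr1, a small subunit maturation factor, the highest in spine, 0.49. Gar1, of the pseudouridylation particle, was lowest in brain at -0.15, and Sbds, which releases Eif6 from the large subunit, was lowest in spine at -0.25. As deposited, the members and this list had medians of the same sign in brain and of opposite sign in spine. After adjustment for GC content and length the median of the members in spine was -0.006, and the list is given without that adjustment. Translation factors had medians of 0.09 in brain and 0.07 in spine, with 34 and 26 of 41 higher. The 20 genes of RNA polymerase I and its factors had medians of 0.07 and -0.01. Mitochondrial ribosomal proteins, which form a separate ribosome, had medians of 0.01 and -0.10 over 75 genes, with 60 lower in NTD spine, where 58% of all genes were lower, and 8 of them at least 20% lower. Those 8 were 10.7% of the list, near the 11.1% of all genes. Of 18 p53 targets, 12 were lower in NTD brain and 9 in NTD spine, with medians of -0.09 and -0.005, where 56.4% and 58% of all genes were lower. Over 12 genes often used as controls the medians were 0.04 in both.

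**Figure D5:**
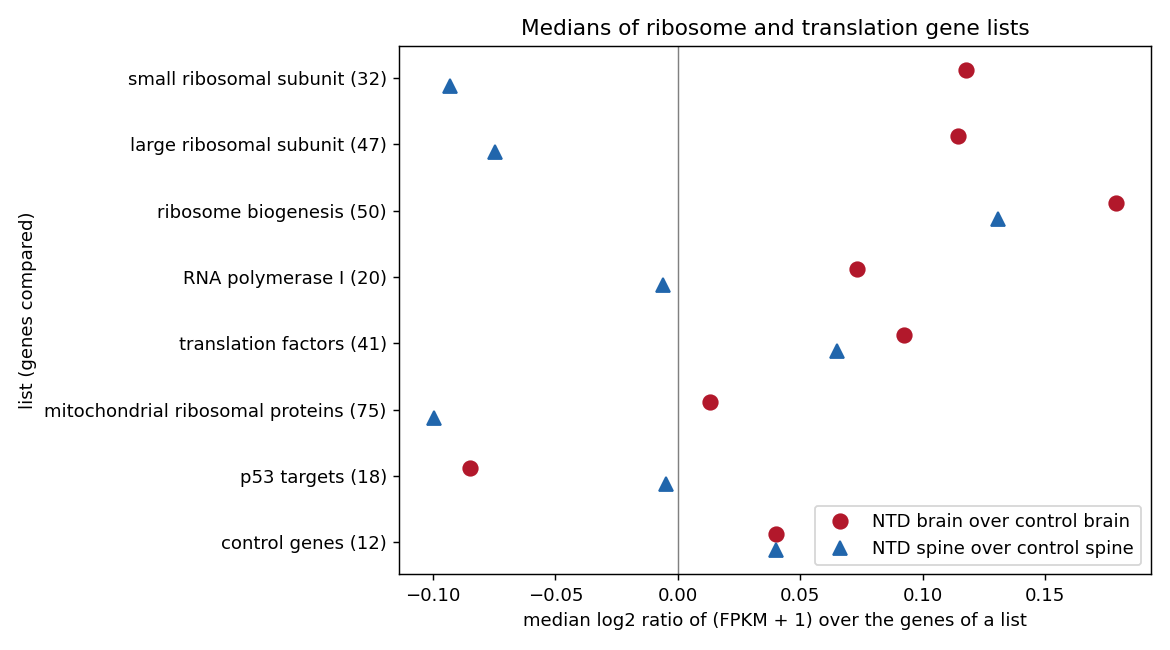
Median log2 ratio of (FPKM + 1) over the compared genes of each list, with circles for NTD brain over control brain and triangles for NTD spine over control spine, and the number of genes in brackets. Both ribosomal subunits lie at 0.11 to 0.12 in brain and at -0.09 to -0.07 in spine, where GC content and length adjustment gives -0.006 over both, while ribosome biogenesis genes lie at 0.18 and 0.13.

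Features that members share beyond their names were read from annotation. Among the members, 30 carry snoRNA genes, which guide rRNA modification, in their introns. Their medians were 0.12 in brain and -0.07 in spine, beside 0.11 and -0.09 for the 49 without. The members lie on 19 chromosomes, and the 4 on X had medians of 0.15 and -0.07. RefSeq promoter windows (GRCm38.p6) were found for 59 members, with 70 windows. The pyrimidine run CTTTC, as in the 5′ end of these mRNAs, was searched on the sense strand from 50 bases before to 30 after the start and occurred in 25 windows (35.7%), against 10.5% of all 32851 windows. CCGGAAG, a letter string of ETS factor sites, occurred on either strand in 37.1% of member and 8.86% of all 300-base windows, and AAGATGG, one of YY1 sites, in 17.1% and 6.34%. The windows of 4 members that stood apart are printed because their starts differ in this run, which is in capitals: Rpl35a (chr16:33056432-33056511), Rpl26 (chr11:68901516-68901595), Rpsa (chr9:120127716-120127795) and Rpl22l1 (chr3:28805458-28805537), all on the plus strand.
Rpl35a: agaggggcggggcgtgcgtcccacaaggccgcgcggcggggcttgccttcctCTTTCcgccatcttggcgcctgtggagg
Rpl26: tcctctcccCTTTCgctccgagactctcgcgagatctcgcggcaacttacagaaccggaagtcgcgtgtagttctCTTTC
Rpsa: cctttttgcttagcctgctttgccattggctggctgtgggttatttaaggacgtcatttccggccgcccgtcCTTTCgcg
Rpl22l1: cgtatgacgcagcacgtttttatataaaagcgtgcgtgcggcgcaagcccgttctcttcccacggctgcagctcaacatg

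Rpl22l1, high in NTD brain, has no CTTTC in this window, nor does Rps2 in its own. The Rpl22l1 window does hold another unbroken stretch of pyrimidines, ttctcttccc, near the start. Rpl35a, high in both NTD libraries, has 3 RefSeq windows: the one printed and another hold the run, beside the reverse complement of AAGATGG, and the window at the first start does not hold it. A match or its absence is a description of these letters alone.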

How the data were processed

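RNA-seq was measured in 4 libraries, 1 per group, grouped by sample title. The authors deposited 1 table of FPKM for 28765 genes. The submitters' processing notes name the aligner HISAT2 2.0.1 and the build mm10. Counting program, annotation, strand setting and read length: not given in the sources used here. Identifiers were matched to GENCODE M21 (28698 matched). Multiplying FPKM by union exon length gave whole reads, within 0.01 reads, in all libraries for 28298 genes, and library totals from 16272101 to 16911677 reads.

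The measure was the log2 ratio of (FPKM + 1), which understates differences of low genes, over 12940 genes averaging 1 FPKM or more. Named folds are ratios of reads per library total with exact conditional binomial (Clopper-Pearson) 95% intervals. Copies were found by exact 75-base windows of the main mRNA. The calculations were tested on simulated data. Members and lists were chosen with earlier results of these data known. Named genes follow a rule: extremes per comparison, members of the role lists, and the highest and lowest of other lists. Alternatives were pseudocounts of 0.1 and 5, other filters, scalings and thresholds, adjustment against genes of like GC content and length (10 by 10 bins), and subsets of members; summing copies, the background of genes of at least 20 FPKM, levels per mRNA length and all alternatives for NTD brain over NTD spine were added after seeing the data. Python 3.11.15, scipy 1.17.1 and matplotlib 3.10.9 were used.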

Additional observations from a re-analysis of the deposited data

Results flagged for a closer look

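The median log2 ratio of the ribosomal protein genes was 0.12 in NTD brain over control brain and -0.08 in NTD spine over control spine, a difference of 0.20 with opposite signs. This difference was not tested, since each group has 1 library. The spine median was nearer to equality in other settings, at -0.029 with an equal FPKM sum and -0.0060 after adjustment for GC content and length. Members whose counting intervals lay on opposite sides of equality in the 2 tissues were led by Rps21, where the ratio in brain minus that in spine was 0.54. The same difference was 0.42 for Rps27, a zinc finger protein of the small subunit, 0.36 for Rpl39, 0.34 for Rpl22 and 0.32 for Rpl14, a large subunit protein, and was not tested in any of them. Rps21, Rpl39 and Rpl22 have no copies, while Rps27 has 2 and Rpl14 has 1.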

How the results depend on the processing

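No paired analysis by replicate number was possible because each group has 1 library and the groups share only 1 replicate number, and no replicate could be left out for the same reason. A fit with tissue as a block, which would count the difference between brain and spine as error, was not run. The median over members kept its sign under every alternative in NTD brain over control brain (0.08 to 0.15), NTD spine over control spine and NTD brain over NTD spine. In NTD spine over control spine it was -0.029 with an equal FPKM sum and -0.0060 after adjustment for GC content and length. In NTD brain over NTD spine it was 0.087 and 0.13 under these settings. In control brain over control spine it reversed, to -0.011 with an equal FPKM sum, -0.0025 after the adjustment and -0.0041 without members that have copies.

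Counts of members at least 25% higher or 20% lower moved as follows. Of 6 higher in NTD brain over control brain, 2 remained in number with copies summed (and 1 was lower), 0 without members that have copies, 3 at 1.5-fold and 1 at 2-fold. In NTD spine over control spine, 1 higher became 2 with a pseudocount of 0.1 or the median of ratios, 3 with an equal FPKM sum or the adjustment, and 0 without members that have copies; 2 lower became 1 with either scaling, the adjustment, copies summed, members without copies, 1.5-fold and 2-fold. In control brain over control spine, 3 lower became 0 with copies summed, without members that have copies and at 2-fold, and 1 at 1.5-fold. In NTD brain over NTD spine, 8 higher became 1 with an equal FPKM sum or the adjustment, 3 without members that have copies, 5 with copies summed and 0 at 1.5-fold and 2-fold, and 1 was lower with no filter, Rpl24. The cause was not tested, apart from the fewer genes or stricter limit of some settings. As a share of the FPKM sum, members held 8.85% in NTD brain, 8.55% in control brain, 8.43% in NTD spine and 8.71% in control spine.

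With copies summed, 6 members changed sign in brain and 12 in spine, most of them within counting error. Counting error in this paragraph is the interval of the gene alone, before the change. Members clear of it reversed to -0.39 for Rpl30 in brain, and in spine to -0.16 for Rpsa, -0.016 for Rpl23a, -0.056 for Rpl26, -0.14 for Rpl34 and -0.0100 for Rps3a1. The sum of Rpl23a in spine was 0.989-fold, with an interval that covers 1 (0.948 to 1.03). Among members not clear of it, Rpl35 went from 0.079 to -0.20 in spine. The adjustment for GC content and length changed the sign of 8 members in brain and 25 in spine, of which 4 and 16 had intervals clear of 1. Of the members named in the text, those with such intervals reversed in brain to 0.059 for Rpl8, 0.079 for Rpl36, 0.10 for Rps15 and -0.0034 for Rps27l, and in spine to 0.058 for Rplp0, 0.0011 for Rpl11, 0.069 for Rpl8, 0.016 for Rpl41, 0.020 for Rpl36 and 0.034 for Rps15. An equal FPKM sum changed the sign of 8 members in brain, 0 of them clear of counting error, and of 15 in spine, of which 4 were clear of it, among them Rpl5, at 0.0035. Depth limits Rps10, Rpl29, Rpl22l1, Rpl21, Rpl23a, Rpl34 and Rpl13a most, with between 221 and 584 reads in a library.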

Other observations

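Fau and Rps27rt also encode ribosomal proteins but fall outside the naming rule. Rps27rt was counted above among the copies of Rps27. Fau, a ubiquitin-like fusion with ribosomal protein S30, was at 462 FPKM in NTD brain against 455 FPKM in control brain, and at 411 FPKM in NTD spine against 449 FPKM in control spine. Rps27rt, a retrogene of Rps27, was at 224 FPKM in NTD brain against 218 FPKM in control brain, and at 198 FPKM in NTD spine against 220 FPKM in control spine. Both were lowest in NTD spine.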
